A study of Caenorhabditis elegans with 4 samples.

Results

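Histones are the proteins around which nuclear DNA is wound, and their genes in Caenorhabditis elegans carry the symbols his and hil followed by a number. The genes described here are all those whose current symbol has this form, taken from the probe annotation with 1 symbol per probe. They number 62 of the 14943 named genes with a probe on the arrays, and all 62 had a value on every array. The RefSeq gene table of assembly WBcel235 holds 80 such symbols, and the other 18 were not analysed here. Transcript levels had been compared on 4 two-channel arrays, each with total RNA from 1 of the 4 glp-4 L4 preps in channel 2 and a wild-type reference of mixed stage in channel 1, L4 being the larval stage before adulthood. The labels name no allele, strain, sex, growth temperature or other treatment, so the animals are known only as glp-4 L4 against wild type of mixed stage. Genotype and stage therefore differ together in every ratio, and the effects of the 2 cannot be told apart. Nothing in the labels says that the 4 preps came from separate cultures, so the p-values measure only the spread between these preps.

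A nucleosome holds a core of H2A, H2B, H3 and H4, and a linker histone, H1, binds where the DNA enters and leaves it. In animals, most core histone transcripts are replication-dependent: they are made while DNA is being copied, and they end in a stem-loop bound by the stem-loop binding protein in place of a poly(A) tail. Variant histones such as H3.3, H2A.Z and the centromeric CENP-A are encoded by separate genes, and many are made outside S phase as well. The product of glp-4 is a tRNA synthetase for valine, and in glp-4 mutants grown at the restrictive temperature the germ cells are known not to proliferate. The germ line is the main dividing tissue of the adult worm.

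Each value below is a log2 ratio read as glp-4 L4 over reference, so that 1 is a 2-fold higher and -1 a 2-fold lower level in glp-4 L4. The labels do not state the direction of the ratio; the reading is only likely, going by which channel is listed as the sample, and every "higher" and "lower" rests on it. A gene was called higher or lower where limma's test of the mean ratio against 0 gave an adjusted p under 0.05, adjusted over all 19989 genes and unnamed probes tested. The arrays had medians between -0.12 and 0.02, and Pearson's r between preps, across genes and probes that are not independent replicates, ran from 0.74 to 0.90. Prep 1 was the least like the others, with r of 0.74 to 0.82, against 0.87 to 0.90 among preps 2, 3 and 4. The sources used here do not give the probe sequences or the priming of the labelled RNA. Copies of a core histone type encode nearly the same protein, and probes of near-identical copies can bind each other's transcripts, so the value of any 1 core histone gene is uncertain. For the same reason, counts of core genes or of neighbouring pairs may not be counts of separate measurements.

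The median ratio of the core histone genes lay above 0, and those of the linker and H3.3-type genes lay below it. Of the 49 core genes (H2A, H2B, H3 and H4 without the H3.3 type), 28 were higher, 3 lower and 18 did not pass, and none of the 8 linker and 5 H3.3-type genes was higher, while 7 and 4 of them were lower. Over all genes and probes tested, 20.6% were called higher and 24.4% lower. The share higher among core genes was 57.1%, and the shares lower were 87.5% of linker and 80.0% of H3.3-type genes. On all 4 preps, 33 core genes were above 0 and 3 below, while 25.7% of all genes and probes were above 0 throughout and 28.7% below. The median of the core genes was 0.54, 0.39, 0.78 and 0.76 on preps 1 to 4. That of the H3.3-type genes was -0.70, -0.61, -0.46 and -0.63, and that of the linker genes -1.49, -1.91, -2.07 and -2.53. The 3 sets of medians did not overlap on these arrays, and the median of all 14940 named genes tested stayed between -0.05 and 0.02. The core median exceeded that of the H3.3 type by 1.22 ± 0.16 and that of the linker genes by 2.62 ± 0.56 (SD over 4 preps). The call counts rest on a test per gene, and the class medians are a description with no test of their own.

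**Figure D1:**
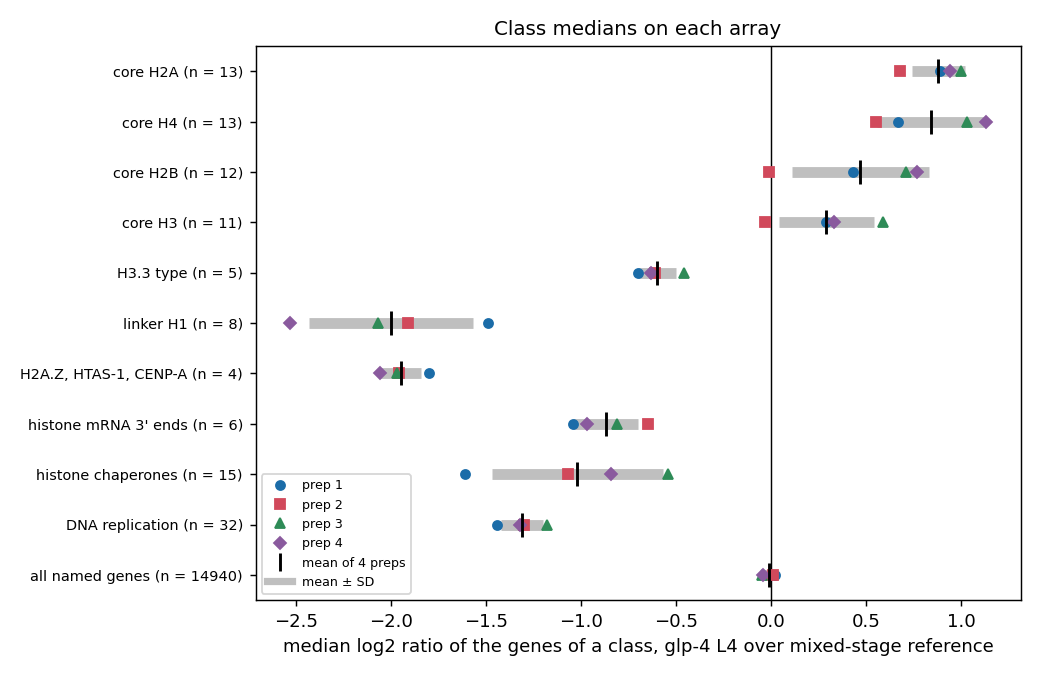
Median log2 ratio (horizontal axis, glp-4 L4 over mixed-stage reference) of the genes in each class, with 1 point per prep, a black tick for the mean of the 4 preps and a grey bar for its SD. The H2A and H4 medians lie above 0 on all 4 preps, those of H2B and H3 fall to -0.01 and -0.03 on prep 2, and the medians of the linker, variant, chaperone and DNA replication genes all lie below 0.

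The 4 core types were not alike. H2A had values for 13 of its 17 symbols, of which 10 were higher and 0 lower, with medians of 0.89, 0.68, 1.00 and 0.94 on preps 1 to 4. H4 had values for 13 of 16 symbols, of which 10 were higher and 1 lower, with medians of 0.67, 0.55, 1.03 and 1.13. H2B, with values for 12 of 17 symbols, had 6 higher and 1 lower, and medians of 0.43, -0.01, 0.71 and 0.77. H3 had the fewest calls: of 11 genes with values among 15 symbols, 2 were higher and 1 lower, and the medians were 0.29, -0.03, 0.59 and 0.33. The share of H3 genes called higher, 18.2%, was near the 20.6% of all genes and probes. The H2A median lay above the H3 median on every prep, by 0.58 ± 0.12, and the H4 median did so by 0.55 ± 0.19 (SD over 4 preps), while H2A and H4 differed by 0.03 ± 0.18. On prep 2, 31 of the 49 core genes had their lowest value of the 4 preps, and 37 had their highest on prep 3 or prep 4.

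H2A, which pairs with H2B in the core, held the largest positive ratios of the family. His-3 had 1.97, 1.51, 2.41 and 2.50 on preps 1 to 4, a mean of 2.10 ± 0.45 (SD, n = 4), or 4.29-fold (adjusted p = 5.5e-05). His-7 had 1.71, 1.84, 2.47 and 2.20, with a mean of 2.05 ± 0.35 (adjusted p = 3.4e-05). On the higher side these were the 2 histone genes past limma's treat, a test against a 2-fold change which 4.38% of all genes and probes passed in that direction. His-43 followed with 1.43, 1.18, 2.25 and 1.59, a mean of 1.61 ± 0.46, above 2-fold on every array though it did not pass that stricter test. The next 7 called genes, his-33, his-61, his-30, his-65, his-57, his-16 and his-47, had means between 1.26 and 0.48 and were above 0 on all 4 preps. Below them stood his-12 at 0.20 ± 0.20, which was not called. The lowest H2A means belonged to his-68 and his-35, and neither passed. His-68 had -0.03, -0.42, -0.61 and -0.35, and without prep 1 its mean of -0.46 passed as lower. His-35 had 0.54 on prep 1 against -0.50, -1.38 and -0.62 on preps 2 to 4, so its preps fell on both sides of 0, with a mean of -0.49 ± 0.79 (adjusted p = 0.18), and without prep 1 it passed as lower at -0.83.

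H4, the most conserved of the core histones, had a mean above 0 for 12 of its 13 genes. The 3 highest were his-1 with 0.86, 0.86, 1.40 and 1.46 (mean 1.14 ± 0.33, adjusted p = 0.00066), his-14 with 0.84, 0.71, 1.28 and 1.40 (1.06 ± 0.34), and his-5 with 0.83, 0.81, 1.38 and 1.17 (1.05 ± 0.28). In all 3, both values of preps 3 and 4 stood above both values of preps 1 and 2. Preps 3 and 4 share a code in their titles that preps 1 and 2 do not have, and its part in this was not tested. The other 7 called higher, his-26, his-38, his-60, his-10, his-46, his-56 and his-64, had means from 0.99 to 0.56. His-67, at 0.33 ± 0.19, and his-37, at 0.33 ± 0.27, were above 0 on all 4 preps and did not pass. His-31 stood apart from the type, with 0.30 on prep 1 and -0.84, -1.52 and -1.01 on preps 2 to 4. Its mean of -0.77 ± 0.77 was called lower (adjusted p = 0.044), and this call was lost without prep 2, 3 or 4.

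H2B split into 6 genes with means from 1.00 to 1.40 and 6 with means from -0.47 to 0.34, a split seen in the values and not chosen beforehand. His-4 had 1.61, 1.01, 1.47 and 1.52 (mean 1.40 ± 0.27, adjusted p = 0.00015), and his-44 had 1.33, 0.70, 1.38 and 1.22 (1.16 ± 0.31). His-39 had the same mean, 1.16, but with 1.17, -0.06, 1.82 and 1.73 its SD of 0.86 was the widest of the core genes, and its call was lost without prep 3 or prep 4. His-41 at 1.09 ± 0.52, his-15 at 1.06 ± 0.30 and his-11 at 1.00 ± 0.19 made up the rest of the upper group, and all 3 were above 0 on every prep. At the low end his-8 had 0.28, -0.50, -0.74 and -0.06, which averaged -0.25 ± 0.45 and did not pass. His-66 had -0.57, -0.46, -0.41 and -0.45 and was called lower at -0.47 ± 0.07 (adjusted p = 0.018), a call lost without prep 2 or prep 4. That mean joins 2 probes that went opposite ways, at -1.09 and 0.15. The same was true of his-34, whose probes had -0.59 and 0.83 and whose mean of 0.12 therefore describes neither. These were the 2 genes with probes on opposite sides of 0 among the 14 histone genes with more than 1 probe, where the median range between probes was 0.20. Whether the probes of a gene differ in sequence is not known here, so that range need not measure agreement between different probes.

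H3, the partner of H4, had small ratios throughout. His-13 had 0.63, 0.27, 0.87 and 0.78 and was called higher at 0.64 ± 0.27 (adjusted p = 0.0092), and his-6 had 0.57, 0.10, 1.00 and 0.68, with a mean of 0.59 ± 0.37 (adjusted p = 0.023) that did not pass without prep 3 or prep 4. His-9 was just short of the threshold, with 0.43, 0.07, 0.59 and 0.50 (0.40 ± 0.23, adjusted p = 0.055); of its 2 probes, 1 had no value on prep 2. Below these, his-63, his-2, his-59, his-42, his-25 and his-45 had means between 0.35 and 0.09 and were not called. His-55, second lowest of the type, had -0.02, -0.09, 0.33 and 0.09 and averaged 0.08 ± 0.18. His-32 was the only H3 gene below 0 on all 4 preps, with -0.14, -0.49, -0.62 and -0.45, and its call as lower at -0.43 ± 0.21 (adjusted p = 0.04) was lost without prep 2, 3 or 4 and with arrays centred on their medians.

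**Figure D2:**
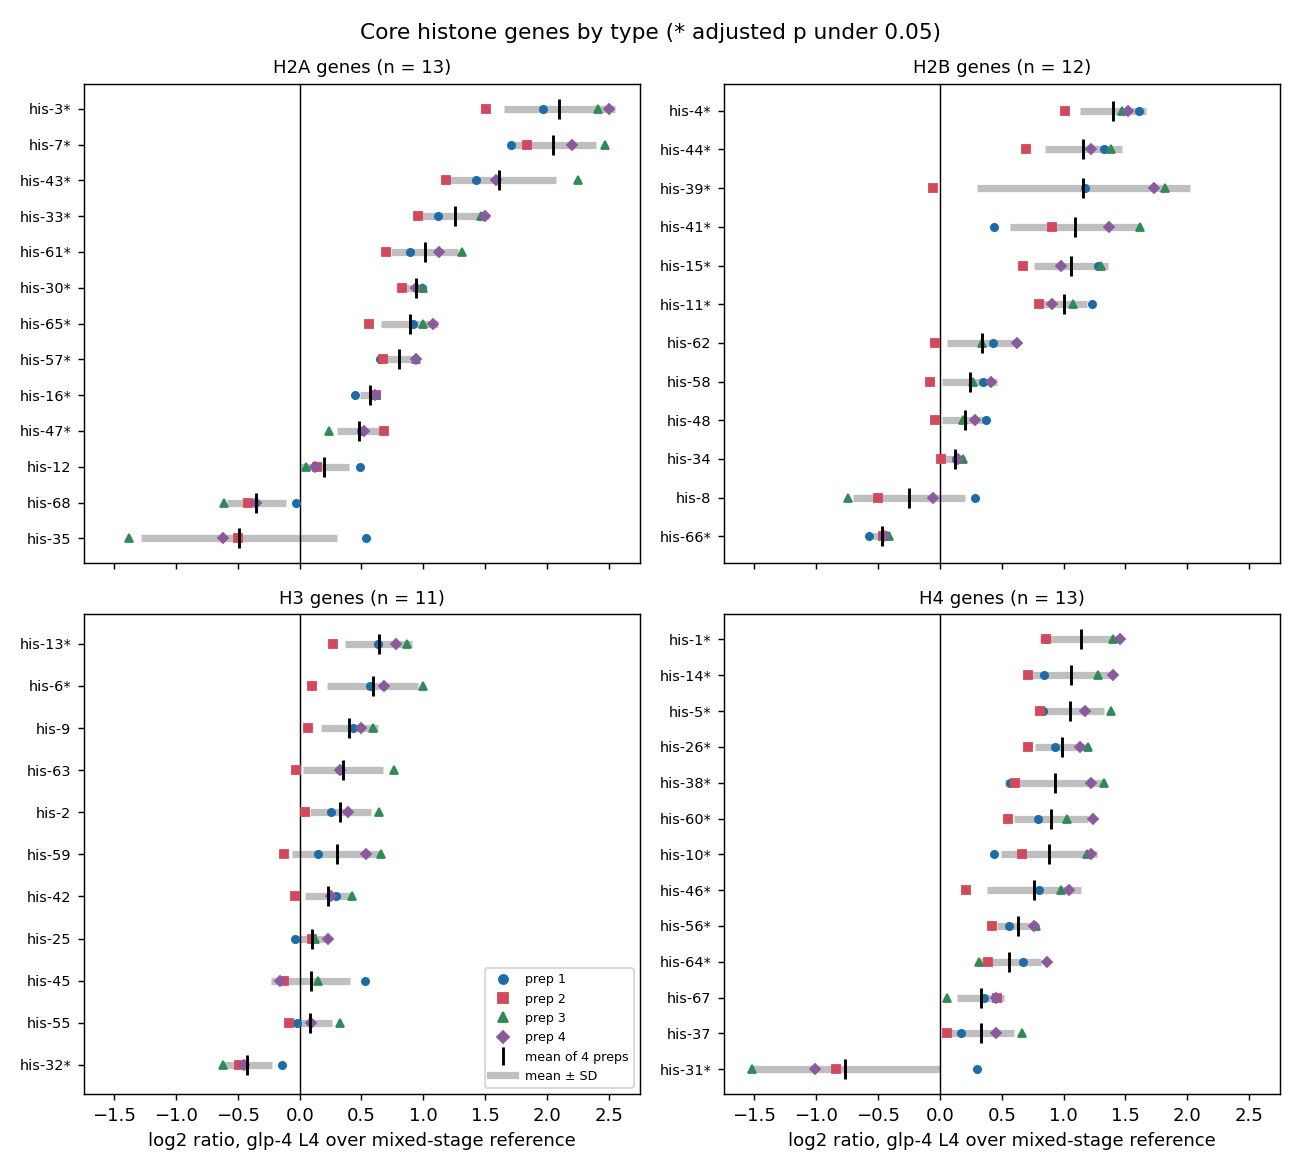
Log2 ratio (horizontal axis, glp-4 L4 over mixed-stage reference) of the 49 core histone genes in 4 panels by type, with 1 point per prep, a black tick for the mean and a grey bar for the mean ± SD; an asterisk marks an adjusted p under 0.05. His-3 and his-7 lead the H2A panel at 2.10 and 2.05, the H3 means stay between -0.43 and 0.64, and his-31 lies alone at -0.77 in the H4 panel.

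Most core histone genes of the worm stand in short runs, in which an H2A gene lies beside an H2B gene and an H3 gene beside an H4 gene. By their order in the RefSeq table, 10 adjacent H4 and H3 genes and 11 adjacent H2A and H2B genes both had values. The H4 gene had the higher mean in 9 of the 10 H4 and H3 pairs, and in 8 of them on all 4 preps, with a median difference of 0.52. The largest of these differences was that between his-26 at 0.99 and his-25 at 0.10, and the pair of his-1 at 1.14 and his-2 at 0.33 came next. The pair that ran the other way was his-31 at -0.77 and his-32 at -0.43, with a difference of -0.34 ± 0.57 (SD, n = 4) that is smaller than its own spread. Neighbouring H2A and H2B genes were less uniform. H2A had the higher mean in 8 of 11 pairs, each on all 4 preps. Among the 8 are his-33 beside his-34 and his-65 beside his-66, where the 2 probes of the H2B gene lay on opposite sides of 0. The median difference over the 11 pairs was 0.56, but the range ran from -1.57 to 2.31. At the top of it was his-7 at 2.05 beside his-8 at -0.25. At the bottom was his-35 at -0.49 beside his-41 at 1.09, a difference that was 0.11 on prep 1 and -1.42, -3.0 and -1.99 on preps 2 to 4. In the remaining 2 pairs, his-16 beside his-15 and his-12 beside his-11, H2A was lower than H2B on every prep, by -0.48 ± 0.35 and -0.80 ± 0.16. The measured ratios of neighbouring genes thus differed, though probes of near-identical copies can bind each other's transcripts. The pairs use the same values as the type medians, so they are no separate support for them. These pair differences are given without a test.

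**Figure D3:**
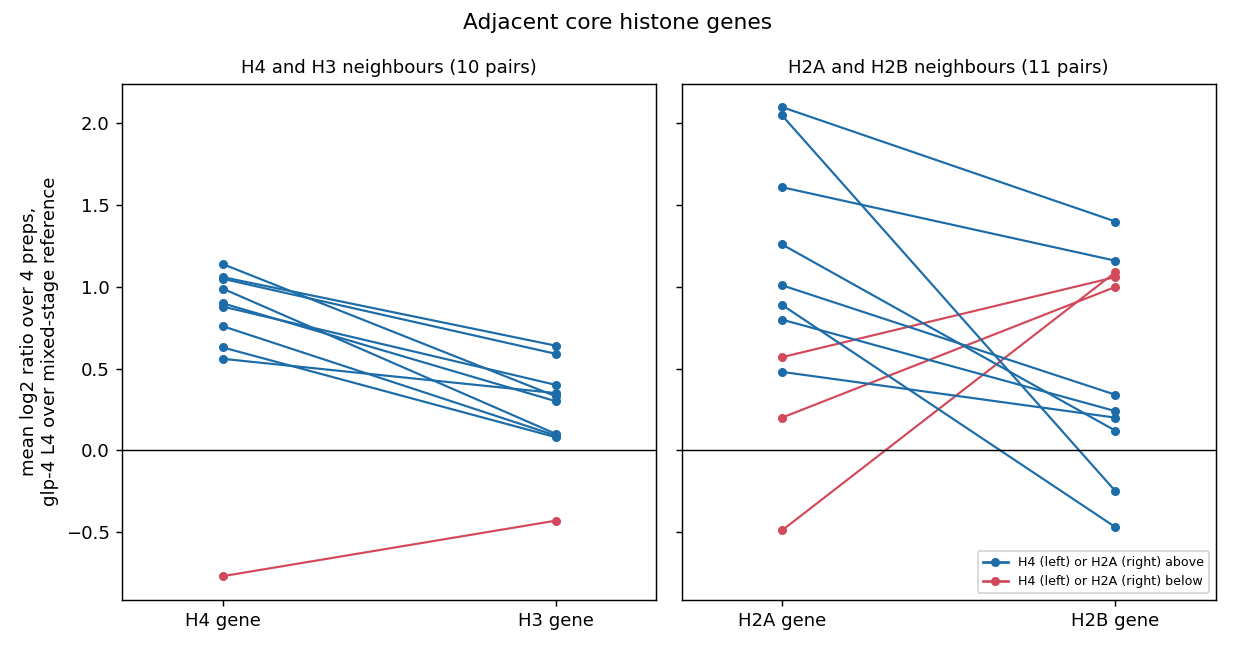
Mean log2 ratio over 4 preps (vertical axis, glp-4 L4 over mixed-stage reference) of adjacent core histone genes, each line joining the 2 genes of a pair: H4 to H3 in 10 pairs at left, H2A to H2B in 11 pairs at right. Blue lines have the H4 or H2A gene above its neighbour (9 and 8 pairs), red lines have it below. The points of the H2B genes his-34 and his-66 each average 2 probes on opposite sides of 0.

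Counts and medians of the core genes by chromosome are a description, and no difference between chromosomes was tested. The counts stand beside 20.6% called higher and 24.4% called lower among all genes and probes. On chromosome II, 1 run of 13 genes holds all the core members with values there, and 9 of them were called higher against 0 lower; their median was 0.88 and their means ran from 0.10 to 1.61. Of 12 core genes on V, 8 were called higher and 0 lower, and the median was 1.07. The 21 on IV had a median of 0.35, with 10 higher and 3 lower, and the 3 lower ones were his-31, his-32 and his-66. Without prep 2, and likewise without prep 4, 0 core genes were called lower. Both genes on I, his-67 and his-68, did not pass, and his-38 on X was higher at 0.93 ± 0.40. For H2B, the 3 genes on II were all higher, with means of 1.00 to 1.16, while of its 5 genes on IV none was higher and their means ran from -0.47 to 0.34. Those 5 include his-34 and his-66, whose means each average 2 probes on opposite sides of 0. Of the 4 H2B genes on V, 3 were higher, and their median was 1.12. For H2A, all 6 genes on IV were higher, with means of 0.48 to 1.26, and its median was 0.57 on II and 0.92 on IV. The breakdown by chromosome was made after the values were seen. The 2 runs on V that hold his-17 to his-22, his-27, his-28 and his-49 to his-54 had no values here.

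Linker histones were lower, and 4 of them lay farther from 0 than any core gene did. Hil-4 had -4.29, -3.78, -4.32 and -4.84 on preps 1 to 4, a mean of -4.31 ± 0.43 (SD, n = 4), or 19.8-fold lower (adjusted p = 2.1e-06), and hil-5 had -3.92, -4.21, -3.32 and -3.56, a mean of -3.75 ± 0.39, or 13.5-fold lower (adjusted p = 2.7e-06). Hil-3, with -1.80, -2.43, -2.51 and -3.11 (mean -2.46 ± 0.53), hil-7, with -1.45, -2.05, -2.53 and -2.86 (-2.22 ± 0.61), and his-24, the H1.1 gene, with -1.17, -1.77, -1.63 and -2.20 (-1.69 ± 0.43), were also past 2-fold by treat, a test which 4.21% of all genes and probes passed on the lower side. In each of these 3 genes prep 1 had the value nearest 0 and prep 4 the farthest. Col-19, a cuticle collagen gene among the epidermal markers, had 2.15, 1.26, -0.60 and -1.89 on the same preps. Dpy-7 of the same list ran the other way, with 0.88, 1.64, 2.43 and 2.49. Both were picked out after their values were seen. Of the 9 epidermal markers measured, 8 were above 0 on all 4 preps. The part of such differences between preps in the linker values was not tested. Hil-6 had -1.53, -1.59, -1.17 and -1.65 and averaged -1.49 ± 0.21 (adjusted p = 8.3e-05), with 1 of its 2 probes missing on prep 2. Hil-1 had -0.68, -1.14, -1.14 and -1.48 and averaged -1.11 ± 0.33 (adjusted p = 0.00079). Only hil-8 of the 8 was not called, with -0.15, 0.12, -0.46 and 0.57 on both sides of 0 (mean 0.02 ± 0.44, adjusted p = 0.94). With each prep left out in turn, the count of lower linker genes was 7 every time.

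H3.3, the H3 variant that is also deposited outside of replication, was encoded by 5 measured genes, all below 0 on all 4 preps. His-74 was lowest by a wide margin, with -1.48, -2.21, -1.84 and -2.31, a mean of -1.96 ± 0.38, or 3.90-fold lower (adjusted p = 5.0e-05), and it was past 2-fold by treat. The other 4 were close together, with means from -0.60 to -0.29. His-72 had -0.97, -0.69, -0.46 and -0.27 (mean -0.60 ± 0.30, adjusted p = 0.015), his-70 had -0.67, -0.51, -0.53 and -0.63 (-0.59 ± 0.08, adjusted p = 0.0068), and his-71 had -0.70, -0.61, -0.20 and -0.43 (-0.48 ± 0.22, adjusted p = 0.025). His-69 had -0.22, -0.14, -0.13 and -0.65 and did not pass, at -0.29 ± 0.25 (adjusted p = 0.15). The calls for his-71 and his-72 are the fragile ones: without prep 2, 2 of the 5 genes were lower rather than 4, and his-71 was also lost without prep 1 or prep 4 and with arrays centred on their medians. The H3.3 median lay below the median of the core H3 genes by 0.99, 0.58, 1.05 and 0.96 on preps 1 to 4.

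Variant histones that carry other symbols went the same way as the H3.3 and linker genes. Htz-1, which encodes H2A.Z, had -1.79, -1.73, -1.58 and -1.75, a mean of -1.71 ± 0.09 (adjusted p = 2.6e-05). Htas-1, an H2A variant known from sperm, had -1.81, -1.27, -1.98 and -1.73, a mean of -1.70 ± 0.30. Hcp-3, the centromeric H3 variant CENP-A, had -2.35, -2.31, -2.01 and -2.37, and cpar-1, a close relative of hcp-3, had -1.75, -2.18, -1.97 and -2.50; their means were -2.26 ± 0.17 and -2.10 ± 0.32. All 4 were past 2-fold by treat. All 4 means lay below the lowest core histone mean, that of his-31 at -0.77. Values on single preps overlapped: on prep 3 his-31 had -1.52 and his-35 had -1.38, against -1.27 for htas-1 on prep 2.

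**Figure D4:**
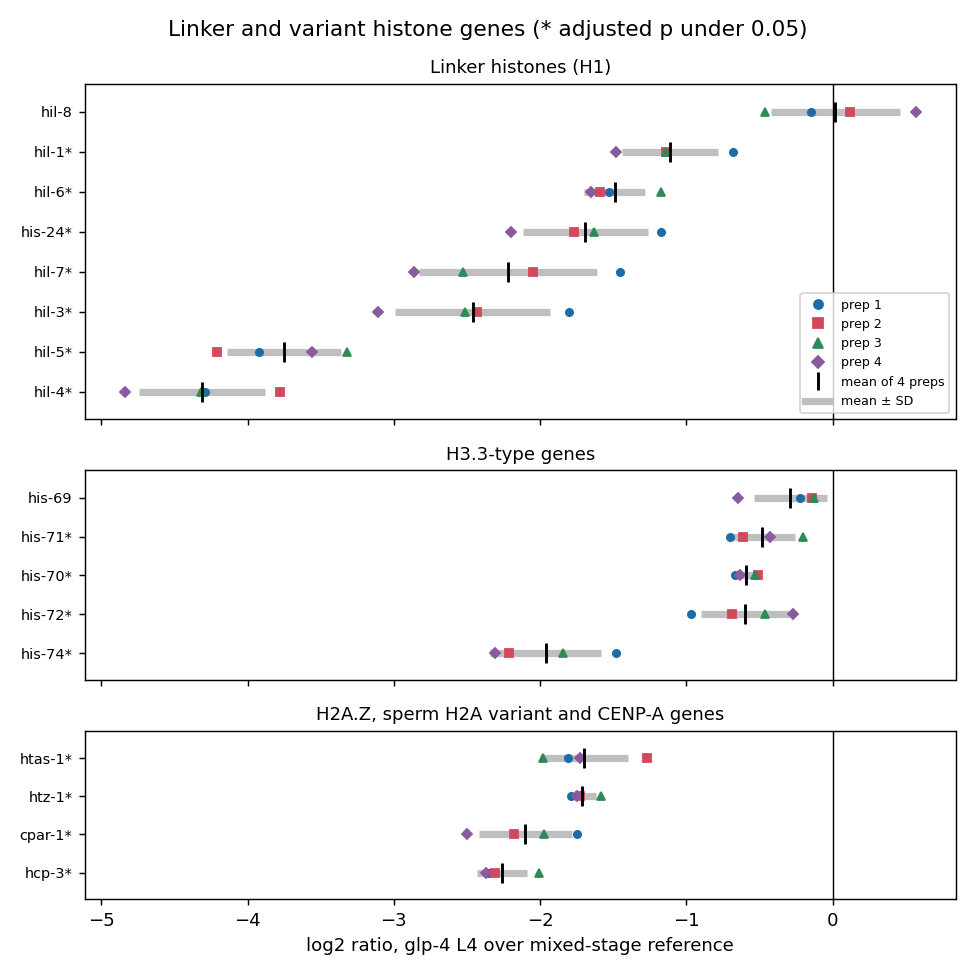
Log2 ratio (horizontal axis, glp-4 L4 over mixed-stage reference) of 8 linker histone genes, 5 H3.3-type genes and 4 variant genes with other symbols, with 1 point per prep, a black tick for the mean and a grey bar for the mean ± SD; an asterisk marks an adjusted p under 0.05. All genes except hil-8 lie below 0 on every prep, from his-69 at -0.29 to hil-4 at -4.31.

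Genes that act with histones were lower where they were called. Among all genes and probes tested, 24.4% were called lower and 20.6% higher. Cdl-1, the stem-loop binding protein of histone transcripts, had -2.13, -1.80, -1.79 and -1.64, a mean of -1.84 ± 0.21 (adjusted p = 2.8e-05), on the arrays on which the core histone median was 0.62. In the list of 6 measured genes for histone mRNA 3′ end formation, 3 were lower and 0 higher, and the median was -0.87 ± 0.17 (SD over 4 preps). The other 2 lower ones were the RNA-dependent RNA polymerase gene ego-1 at -1.85 ± 0.22 and the Argonaute gene csr-1 at -1.47 ± 0.34, while drh-3, ekl-1 and cid-1 had -0.32 ± 0.26, -0.18 ± 0.37 and -0.05 ± 0.24 and did not pass. Of 15 measured histone chaperone and deposition genes, 12 were lower (80.0%) and 0 higher, and the median was -1.02 ± 0.45. The NASP homolog nasp-2 had -3.92 ± 0.30 and the FACT subunit gene hmg-3 had -2.63 ± 0.16. The copies of a chaperone were not equal, and these were named after their values were seen: nasp-1 had -1.49 ± 0.38, the ASF1 homologs asfl-1 and unc-85 had -2.49 ± 0.34 and -0.89 ± 0.51, and hmg-4 had -0.56 ± 0.65 and was not called.

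DNA replication genes, whose products work in the same phase of the cell cycle in which core histones are made, were mostly lower. Of 32 measured, 28 were lower (87.5%, against 24.4% of all genes and probes) and 0 higher. Their medians were -1.44, -1.30, -1.18 and -1.32 on preps 1 to 4. The helicase subunit mcm-7 had -2.61 ± 0.31 and the dUTPase dut-1 had -2.52 ± 0.37. The median of the core histone genes exceeded that of these replication genes on every prep, by 1.99, 1.69, 1.96 and 2.08, which is many times the spread between preps.

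Markers of tissues moved on the same arrays. Of 10 measured germ line markers 10 were lower, with a median of -2.66 ± 0.11, and of 10 oocyte markers 10 were lower, with a median of -4.22 ± 0.13 (SD over 4 preps). Of 10 sperm markers 5 were lower and 0 higher, with gene means from -3.16 to -0.02. Of 6 early embryo markers 1 was higher and 1 lower, or 16.7% each way. Among all genes and probes, 20.6% were called higher and 24.4% lower. Of somatic markers, 8 of 9 for the epidermis, 7 of 8 for the intestine and 4 of 8 for body wall muscle were higher, with medians of 2.23 ± 0.29, 1.58 ± 0.37 and 0.66 ± 0.38, and 1 of them was lower, the intestinal protease gene asp-1 at -0.48 ± 0.22 (adjusted p = 0.027). The medians of the linker, variant, chaperone and replication genes had the sign of the germ line and oocyte medians. The median of the core histone genes had that of the somatic ones, though 18 core genes did not pass and 3 were lower, and the part of tissue makeup in the histone ratios was not tested. In RNA of whole animals, fewer cells of a type and less RNA per cell cannot be told apart.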

How the data were processed

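Per array, the authors deposited 1 log2 ratio of the 2 channels for each probe. The log base follows from the values, and the sources used here do not give the scanner, background correction, dye normalization, centring, labelling or filter on spots. Of 21632 probes, 16450 had 1 gene symbol in the platform annotation, updated to RefSeq (WBcel235) through gene ID, accession or symbol. No probe listing several genes named a histone. Where a gene had several probes, their mean on an array was used. Items on at least 3 arrays (19989, of which 14940 named genes) entered limma 3.58.1 (R 4.3.3), which tested the mean ratio against 0 (lmFit, eBayes, two-sided, Benjamini-Hochberg over all items) and against 2-fold with treat; the steps were tested on simulated data. The spread of the reference itself enters no test. The number of arrays limits the precision.

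Histone types came from general knowledge of the gene naming, because the reference table gives no description; replication-dependent here means a core gene outside the H3.3 type, with no stem-loop checked. Histone genes with at most 2 other protein-coding genes between them formed a run. Members and lists were chosen with earlier results of these data known. Described were all linker and variant genes, cdl-1, the 3 highest and 2 lowest means of each core type, and the 2 largest called changes of each other list; further genes were named after their values were seen. Protein and promoter sequences were not used here.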

Additional observations from a re-analysis of the deposited data

Results flagged for a closer look

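Of 55 sets of 4 values (class and list medians and the genes described by rule), 1 had a prep far from the other 3 by Dixon's ratio, while chance gives about 1 in 20, or 2.75 sets. The CENP-A gene hcp-3 was at -2.01 on prep 3, while preps 1, 2 and 4 lay between -2.37 and -2.31 and averaged -2.34.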

How the results depend on the processing

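Class medians kept their direction under all alternatives run except turning every sign, which by construction gave -0.38 for all histones, -0.62 for core genes, -0.88, -0.47, -0.29 and -0.84 for H2A, H2B, H3 and H4, 0.60 for H3.3 and 2.00 for linker genes, and exchanged the counts (all histones 14 higher and 28 lower, core 3 and 28, H3.3 4 and 0, linker 7 and 0). The mean in place of the median gave 0.14 for all histones and -0.78 for H3.3. Asking also for a mean of at least 1 in size (log2) left 14 higher and 8 lower of all histones, 14 higher and 0 lower core genes, and 1 lower H3.3 gene; an adjusted p under 0.01 left 9 lower histones, 0 core and 2 H3.3. Lower core genes numbered 1 with arrays centred and scaled. They also numbered 1 with the title code shared by preps 3 and 4 as a random block and with those preps averaged. Without moderation there were 19 higher core genes in place of 28, 1 lower core gene and 2 lower H3.3 genes. Leaving out a prep gave 24 to 28 higher core genes, 0 to 5 lower core genes (0 without prep 2 or prep 4, 1 without prep 3, 5 without prep 1), 9 to 15 lower histones and 2 to 4 lower H3.3 genes. Of the genes described, hil-8 ran from -0.16 to 0.18 and his-55 from -0.01 to 0.13 with each prep left out, hil-8 turning to -0.01 and -0.16 without preps 2 and 4 and his-55 to -0.01 without prep 3; neither was called. The cause was not tested for these. Of 645 single-gene repeats, 588 kept direction and call, but part of these repeats could hardly differ. Genes with values on every array kept their means when the number of arrays asked for was changed. Genes not called could not lose a call under a stricter threshold. The companion lists were within 1.5 times their counts. The block's correlation, 0.37, came from the variance within and between blocks. With genes of 1 probe only, an alternative chosen after seeing the data, the H2B median was 0.78 in place of 0.47, and no other class median moved by over 1.5 times. Not run were probes listing several histones (0 found), classes by protein and, gene by gene, the turned sign. No paired analysis was possible because all samples are of 1 group. Spot intensities were not used here, so what signal over background limits could not be judged.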
